A study of Mus musculus with 24 samples.

Results

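Chromatin that carried an ATAC-seq peak only at W12, the last of the sampled times after SOX9 was switched on in mouse epidermal stem cells, is described here. Peaks of the 5 in vivo lists (D0, W1, W2, W6 and W12) were merged wherever they shared at least 1 bp, which gave 98240 regions of open chromatin, and a region was kept when the W12 list had a peak in it and the other 4 lists had none. This left 5272 regions, 5.37% of all regions and 7.57% (95% Wilson interval 7.38 to 7.77) of the 69650 regions with a W12 peak. Because the regions were chosen by the peak calls themselves, their presence at W12, their W12 scores and their absence elsewhere describe the choice and are not findings. Shares below are over the 5262 regions on chromosomes 1 to 19 and X (7 others lay on unplaced sequence and 3 on Y).

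Cells of every group came from mice labelled CD1 and male. In vivo, K14rtTA; TRE-myc-Sox9 epidermal stem cells were sorted from back skin as cells negative for CD31, CD45, CD117, CD140a and CD34 and high for CD49f and Ly6A. The Krt14 promoter drives the doxycycline (DOX)-dependent activator rtTA in skin epithelium, and all in vivo mice carried both transgenes, D0 included. D0 cells were taken at postnatal day 21 without DOX, and the W1, W2 and W6 cells at days 28, 35 and 63 after a DOX injection and DOX feed. The W12 cells alone came from grafted skin, which per the study's methods was skin of newborn pups placed on immunocompromised female Nude hosts and given DOX after it had healed. Week and graft therefore cannot be told apart for any region in the W12-only set. Cultured back skin keratinocytes supplied 7 further lists that the choice did not use. They comprised K14rtTA; TRE-myc-Sox9 cells without DOX (noDOX) and, at 1 µg/ml DOX, the same cells (WT-SOX9), cells with TRE-myc-Sox9noHMG, a SOX9 that cannot bind DNA since the HMG domain is deleted (ΔHMG-SOX9), cells with TRE-myc-Sox9noTA, in which the transactivation domain is deleted (ΔTA-SOX9), cells with TRE-FLAG-AFOS (AFOS), and cells with intact SOX9 plus either AFOS (SOX9+AFOS) or TRE-ARID1a (SOX9+ARID1a). AFOS is a dominant-negative FOS that keeps AP1 from binding DNA, and ARID1a belongs to the SWI/SNF complex, which remodels nucleosomes. Every list held the merged reads of 2 replicates, each pooled from several mice in the in vivo groups, so no spread between replicates was available and no test was made. Intervals cover counting error over regions, which are not replicates.

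ATAC-seq uses a transposase that inserts adapters where DNA is not wrapped in nucleosomes, so peaks mark promoters, enhancers and insulators. SOX9 is a pioneer factor that binds its motif in closed chromatin and specifies hair follicle stem cells, whereas epidermal stem cells normally keep it off. AP1 (FOS and JUN dimers) and RUNX factors bind many enhancers of skin epithelium, in particular during wound repair, stress and carcinoma, and sustained SOX9 in this model leads towards basal cell carcinoma, a tumour of hedgehog-activated skin epithelium.

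The sequences of 8 W12-only regions are shown because they include the highest scores of the set, each of the AP1, RUNX and SOX letters, and regions with a peak in every, in some or in no culture list. Each run is the central 200 bp on the + strand of GRCm38, and capitals mark matches on either strand to AP1 (TGAGTCA or its reverse complement TGACTCA), RUNX (TGTGGT), SOX (ACAATGG or the variants ACAATAG with ACAAAGG) and the letters AGATAA of GATA factors. None of these motifs contains another. Every window shown holds at least 1 match. Windows without any were left out, although 36.8% of the set hold none of these letters, so the 8 do not represent the set. A match is a description of letters, not of a bound site. In order, the windows are Crb2 (chr2:37818333-37818532) in an intron of Dennd1a, Pdia4 (chr6:47771830-47772029) between genes, Chrm3 (chr13:10867970-10868169) between genes, Ms4a6b (chr19:11516876-11517075) in an intron of Ms4a6b, Lrrc49 (chr9:60664942-60665141) in an intron of Lrrc49, Adpgk (chr9:59245218-59245417) between genes, Ggact (chr14:122812394-122812593) in an intron of Pcca and Slc30a8 (chr15:52428505-52428704) between genes. Each is named for the nearest transcription start site (TSS) of a protein-coding gene.
Crb2: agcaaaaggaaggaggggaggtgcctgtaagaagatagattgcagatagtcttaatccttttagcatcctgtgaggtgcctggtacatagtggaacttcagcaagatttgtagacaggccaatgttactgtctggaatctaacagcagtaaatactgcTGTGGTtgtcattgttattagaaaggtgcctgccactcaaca
Pdia4: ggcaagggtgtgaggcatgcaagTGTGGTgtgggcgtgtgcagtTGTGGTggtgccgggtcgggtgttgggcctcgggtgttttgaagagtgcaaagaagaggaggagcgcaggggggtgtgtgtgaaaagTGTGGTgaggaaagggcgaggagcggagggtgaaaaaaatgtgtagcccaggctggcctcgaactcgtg
Chrm3: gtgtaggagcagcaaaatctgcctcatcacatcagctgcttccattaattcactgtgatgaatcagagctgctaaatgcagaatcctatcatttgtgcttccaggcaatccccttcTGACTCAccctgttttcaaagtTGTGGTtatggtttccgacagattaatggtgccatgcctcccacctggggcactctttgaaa
Ms4a6b: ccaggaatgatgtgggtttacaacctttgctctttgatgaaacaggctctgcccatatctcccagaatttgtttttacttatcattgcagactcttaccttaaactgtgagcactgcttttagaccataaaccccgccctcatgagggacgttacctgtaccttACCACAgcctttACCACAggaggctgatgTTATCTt
Lrrc49: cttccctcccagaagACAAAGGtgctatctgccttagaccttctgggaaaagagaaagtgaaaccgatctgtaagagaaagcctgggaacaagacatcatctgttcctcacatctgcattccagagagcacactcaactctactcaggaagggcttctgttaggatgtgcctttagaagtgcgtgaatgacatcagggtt
Adpgk: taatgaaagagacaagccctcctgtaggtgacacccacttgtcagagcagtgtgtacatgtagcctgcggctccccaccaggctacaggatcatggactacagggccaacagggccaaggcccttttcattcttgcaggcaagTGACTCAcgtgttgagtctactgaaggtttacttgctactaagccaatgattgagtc
Ggact: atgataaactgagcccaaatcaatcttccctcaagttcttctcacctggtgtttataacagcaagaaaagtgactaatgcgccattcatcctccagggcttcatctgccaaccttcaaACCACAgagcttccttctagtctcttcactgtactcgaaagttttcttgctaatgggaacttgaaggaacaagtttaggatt
Slc30a8: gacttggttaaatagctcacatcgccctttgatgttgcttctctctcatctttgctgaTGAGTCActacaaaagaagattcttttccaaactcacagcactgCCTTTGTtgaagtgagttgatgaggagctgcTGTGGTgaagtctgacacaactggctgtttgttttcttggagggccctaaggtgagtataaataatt

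AP1 letters were present in the Chrm3, Adpgk and Slc30a8 windows. RUNX letters stood in the Crb2, Pdia4, Chrm3, Ms4a6b, Ggact and Slc30a8 windows, and SOX letters in Lrrc49 and Slc30a8, so that only Slc30a8 of those shown combined the 3. Over the whole set, AP1 letters were found in 41.6% of regions, RUNX letters in 21.4% and SOX letters in 10.2%, against 19.6%, 14.9% and 9.96% of all in vivo regions scanned over the same length.

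Peak strength sets how far absence from the earlier lists can be read. The deposited score of a peak had been normalized by the authors to put lists on a common scale, and peaks below 3 had been removed. Scores of the W12-only regions ran from 3 to 174 with a median of 3.87 and quartiles of 3.36 and 4.87, which placed most of them close to the removal threshold. Their median fold enrichment over local background was 5.05 (2.15 to 20.4), their median −log10 q was 13.5 and their median width was 325 bp. By comparison, the W12 score had a median of 5.01 in the 6773 regions with peaks at W6 and W12 only, and of 14.6 in the 37116 regions present in all 5 lists. The W12-only share was 21.6% (21 to 22.2) of W12 regions scoring 3 to 5, 7.26% (6.84 to 7.69) at 5 to 8 and 0.594% (0.52 to 0.678) at 8 or more. Thus 76.1% of the set lay in the lowest band, 1786 regions scored under 3.5 and 574 under 3.1, whereas 77 scored 10 or more. The 10 regions nearest to the threshold scored 3.0009 to 3.0039. Just outside the set lay 72 regions with W6 and W12 peaks only whose W6 score was 3.0008 to 3.0999. Their W12 scores ran from 3.02 to 9 with a median of 4.18, so regions just inside and just outside the choice had overlapping W12 scores.

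**Figure D1:**
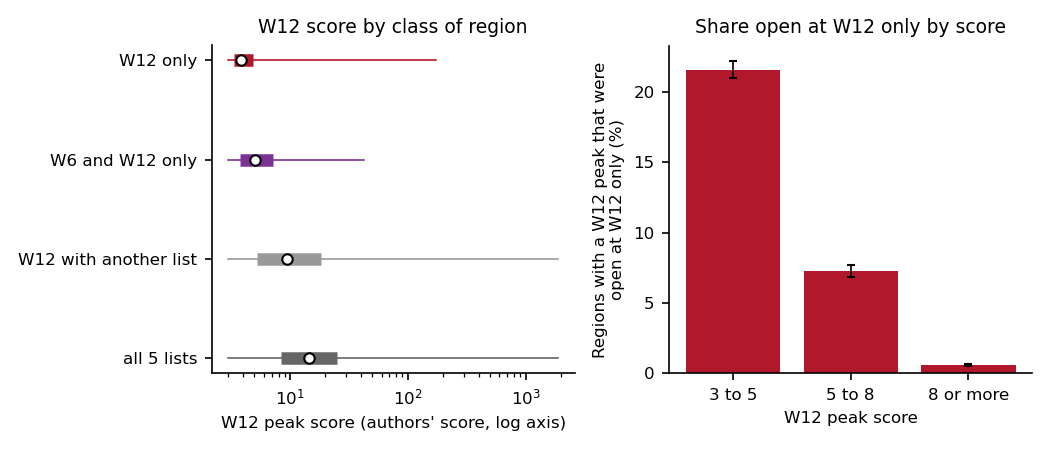
Left, the deposited W12 peak score on a log axis by class of region (circle, median; bar, quartiles; line, lowest to highest); right, the share of regions with a W12 peak that are W12-only (percent, with 95% Wilson intervals) by score band. W12-only regions sit lowest, with a median of 3.87 against 14.6 in all 5 lists, and their share falls from 21.6% at scores of 3 to 5 to 0.594% at 8 or more.

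The W12-only region with the highest score was chr2:37817890-37818976, 1087 bp in an intron of Dennd1a, which encodes a RAB35 activator in endocytosis, and 42.2 kb from the TSS of the polarity gene Crb2. Its W12 score of 174 (fold enrichment 12.6, −log10 q 698) stood far from the second highest in the set, 29.5, and no culture list had a peak there. That second region, chr6:47771735-47772125, lay 41.5 kb from Pdia4, which encodes a protein disulfide isomerase of the endoplasmic reticulum. It had the largest fold enrichment of the set (20.4) and a peak in all 7 culture lists, with scores of 14.2 in noDOX, 11.2 in WT-SOX9, 13.2 in ΔHMG-SOX9, 19.4 in ΔTA-SOX9, 6.56 in AFOS, 7.02 in SOX9+AFOS and 5.74 in SOX9+ARID1a. A W12-only region can thus have a peak in cultured cells that never received DOX, here near the median noDOX score of in vivo regions with such a peak (13.8). The region in Ctnnbl1, a splicing-associated gene, scored 24 at W12 and had peaks of 19.5 in noDOX, 8.15 in WT-SOX9, 74 in ΔHMG-SOX9, 73.5 in ΔTA-SOX9, 48.8 in AFOS and 24.6 in SOX9+ARID1a but none in SOX9+AFOS. Nfil3, which encodes a bZIP repressor, had the same pattern of presence at its intronic region (W12 score 16), with culture scores of 9.97, 5.19, 12.4, 19.1, 15.2 and 7.71 in that order. In both, the WT-SOX9 score was the lowest among the culture lists with a peak.

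Of the other regions among the 12 highest scores, 4 lay in introns of the gene they are named for: Cdk5rap2, a centrosomal gene (20.6), Ms4a6b, a membrane protein gene of immune cells (17.9), Anks1b, a synaptic scaffold gene (17.5), and Lrrc49 (17). The other 4 lay outside it, 226 kb from the TSS of Adgb, a globin-domain gene (19.9), 507 kb from that of Chrm3, the M3 muscarinic receptor gene (18.7), 20.4 kb from that of Polr3e, an RNA polymerase III subunit gene (15.9), and 46.2 kb from that of the ADP-dependent glucokinase gene Adpgk (15.9). Of the 12, 6 had no peak in any culture list, 1 had a peak in all 7, 2 held AP1 letters, 5 held RUNX letters and 1 held SOX letters. Over the whole set these shares were 43%, 5.59%, 41.6%, 21.4% and 10.2%. The Ms4a6b region, 0.464 kb from its TSS, was the only one of the 12 with a peak in WT-SOX9 (score 21) and in no other culture list.

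W12-only regions were seldom promoters. Within 1 kb of a protein-coding TSS lay 3.17% of them (167 regions, 2.73 to 3.68), close to the 3.21% of regions at W6 and W12 only and below the 6.25% of W6-only regions, the 15.2% of all in vivo regions and the 31.3% of regions in all 5 lists. Regions found in a single earlier list had 6.47% (D0 only), 6.12% (W1 only) and 6.21% (W2 only). The median distance to a TSS was 28.6 kb, against 22.3 kb over all regions, 33 kb for W6 only and 34.5 kb for W6 and W12 only. Introns held 54.2% of W12-only regions and 40% were intergenic (49.1% and 39% over all regions), with 2.05% in UTRs, 1.75% in coding exons and 1.92% in noncoding exons. Median GC content of the central window was 48.5% against 50% over all regions. Repeat-masked bases filled over 50% of the window in 5.04% of W12-only regions, 7.22% of W6-only and 3.52% of all regions. The nearest region present in all 5 lists was a median of 13.3 kb away, against 15.5 kb for W6-only and 16.1 kb for W6-and-W12-only regions, and 26.7% of the set had such a region within 5 kb (25.1% and 22.8%). The nearest in vivo region outside the set was a median of 4.68 kb away, and 52.1% had one within 5 kb.

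AP1 letters were more frequent in W12-only regions than in regions unique to any earlier list. They were present in 41.6% of W12-only regions (2188 of 5262, 40.3 to 42.9), against 18.9% (18 to 19.7) of W6-only, 9.42% of W2-only, 7.12% of W1-only and 17.4% of D0-only regions, 21.3% of the remaining regions with a W12 peak and 19.6% (19.3 to 19.8) of all regions. Regions at W6 and W12 only had 40% (38.8 to 41.1), an interval that overlapped that of the W12-only set. Hence the high AP1 share was common to both classes that lacked a peak before W6 and had one at W12. RUNX letters followed, in 21.4% of W12-only regions (20.3 to 22.5), 18.3% of W6-only, 23.1% of W6 and W12 only and 14.9% of all regions. With the whole region scanned in place of 200 bp, the order against all regions turned, to 31% of W12-only and 35.4% of all, whose regions are wider (median of 522 bp). AP1 and RUNX letters occurred together in 8.02% (7.32 to 8.78) of W12-only windows and 3.19% of all windows.

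SOX letters, by contrast, were less frequent in the W12-only set than in W6-only regions. The share was 10.2% (9.42 to 11.1) against 9.96% (9.77 to 10.1) of all, 14.7% (13.9 to 15.5) of W6-only, 13.8% (13 to 14.7) of W6 and W12 only and 16.2% of W2-only regions. With a common minimum −log10 q in all 5 lists, the share was 11.4% against 9.22% of all and 19.1% of W6-only regions. With the whole region scanned, it was 16.6% against 24.2% of all, whose regions are wider. Whether it lay above or below that of all regions thus depended on the stringency and the length scanned. GATA letters, bound by GATA3 in epidermal cells, were found in 8.78% (8.05 to 9.57) of the set and in 10.5% of all regions, while D0-only and W1-only regions had 20.4% and 19.9%. TEAD letters (GGAATG), the motif of the YAP-dependent TEAD factors, were near the background at 13.2% against 13.8%, and the CTCF motif of insulators at 1.98% against 2.4%. The NFkB motif had 2.45% against 1.77%, the IRF motif 2.64% against 1.95% and the KLF motif 3.38% against 4.18%. None of the AP1, RUNX, SOX and GATA letters stood in 36.8% of W12-only windows and 55.8% of all windows, which says only that these letters are not in that window.

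**Figure D2:**
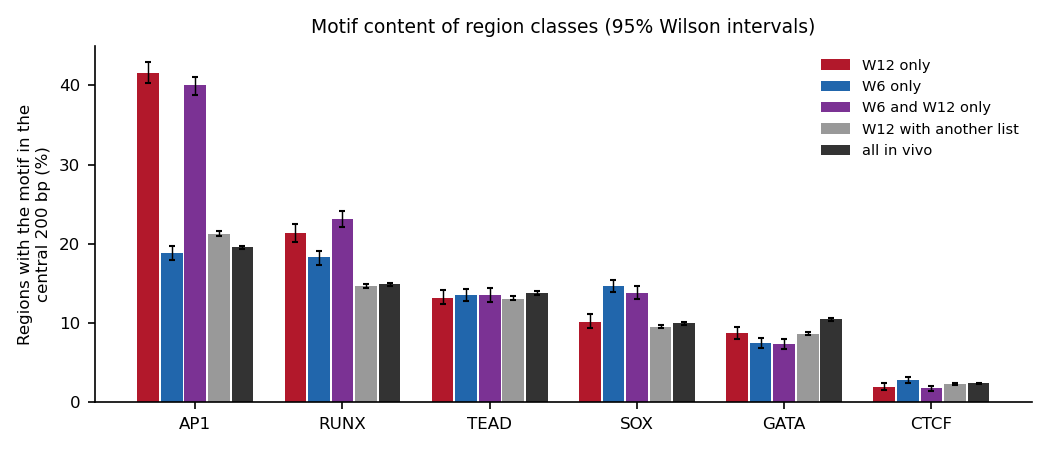
Share of regions (percent, bars with 95% Wilson intervals) whose central 200 bp hold the AP1, RUNX, TEAD, SOX, GATA or CTCF motif, by class of region. AP1 letters reach 41.6% in W12-only and 40% in W6-and-W12-only regions, against 19.6% of all regions, whereas SOX letters in W12-only regions (10.2%) are near the 9.96% of all regions.

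Since W12-only regions were weaker than other regions, the AP1 share was also compared among regions of like score. In the bands of 3 to 5, 5 to 8 and 8 or more, AP1 letters were in 39.7%, 47.5% and 47.4% of W12-only regions and in 18.3%, 21.9% and 22.2% of the other regions with a W12 peak, so the W12-only share was higher in each band. Among the 12 highest scores of the set, however, only 2 regions held AP1 letters. W6-only regions, banded by their W6 score, had 18.5%, 19.8% and 21.1%, and regions at W6 and W12 only had 33.2%, 44% and 51% by their W12 score. The SOX share of W12-only regions was 10.3%, 9.89% and 10.7% over the same bands, while that of W6-only regions was 13.7%, 17.6% and 21.5%.

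Position within the peak was then examined, in windows of 100 bp centred on the summit and 400 bp to either side. AP1 letters were in 29.4% (28.2 to 30.6) of W12-only summit windows and 1.83% of flank windows, a ratio of 16. The same ratio was 16 for W6 and W12 only, 10.4 for the remaining W12 regions and 6.99 for W6-only regions, whose summit share was 12.5%. AP1 letters were therefore concentrated at the summit of the W12 peak. Among matches within 200 bp of the summit, their median distance was 44.5 bp, against 99.5 bp for SOX and 108 bp for GATA letters. RUNX letters were in 12.9% of summit and 8.45% of flank windows (ratio 1.52). For SOX letters the values were 5.07% (4.51 to 5.7) and 4.29% (3.92 to 4.7), a ratio of 1.18 with overlapping intervals, against 1.65 in W6-only and 1.58 in W6-and-W12-only regions and 1.27 in the remaining W12 regions. GATA letters were less frequent at the summit (4.2%) than in the flanks (6.04%). At least 2 AP1 matches stood in 5.3% of W12-only regions, 5.18% of those at W6 and W12 only and 1.09% of W6-only regions.

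**Figure D3:**
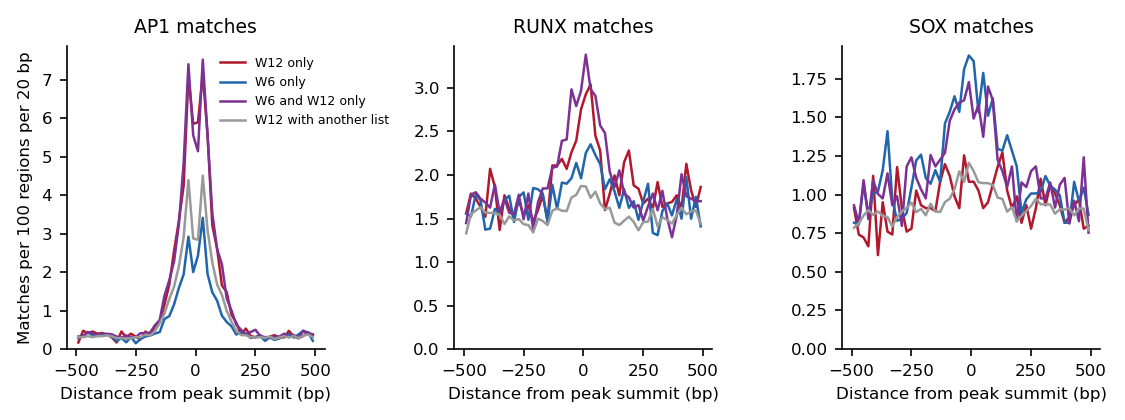
Matches to the AP1, RUNX or SOX letters per 100 regions in bins of 20 bp, by distance from the peak summit (bp), with a line for each class of region and a separate vertical scale in each panel. AP1 matches rise at the summit of W12-only regions (29.4% of 100 bp summit windows hold one against 1.83% in the flanks), and SOX matches differ little (5.07% against 4.29%).

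The culture lists, which played no part in the choice, show where else these regions were open. A peak in at least 1 of the 7 lists was found in 57% of W12-only regions (2999), compared with 37% of W6-only, 63.9% of W6-and-W12-only and 61.8% of all regions, and the other 2263 regions (43%) had none. Keratinocytes without DOX had a peak in 33.7% (32.4 to 34.9) of the set, against 45.5% of all in vivo regions, 40.3% of W6-and-W12-only, 14.9% of W6-only, 11.7% of W2-only, 11.4% of W1-only and 10.6% of D0-only regions. Accordingly, 1771 regions that had no peak at D0 in vivo carried one in cultured keratinocytes not exposed to DOX, and their share was above that of each class seen in a single earlier list and below that of regions at W6 and W12 only.

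Among the induced arms, the W12-only share was lower with WT-SOX9 than with either SOX9 mutant. It was 23% (21.8 to 24.1) in WT-SOX9 (background 42.4%), 34.1% in ΔHMG-SOX9 (background 41.8%) and 41.6% in ΔTA-SOX9 (background 43.0%). With AFOS the share was 38.5% (background 43.0%), with SOX9+AFOS it was 12.7% (11.8 to 13.6; background 39.9%) and with SOX9+ARID1a 31.9% (background 43.1%). The share in SOX9+AFOS was thus the lowest of the 7 lists. In regions at W6 and W12 only the share was also lowest in SOX9+AFOS (21.8%), then in WT-SOX9 (35.1%), and highest in ΔTA-SOX9 (44.5%), but ΔHMG-SOX9 (37%) stood below SOX9+ARID1a (39.5%). W6-only regions had shares of 17.5% in WT-SOX9, 12.4% in ΔHMG-SOX9, 15.2% in ΔTA-SOX9 and, with SOX9+AFOS, 17.2%. The low shares in SOX9+AFOS and WT-SOX9 were thus found in both classes that lacked a peak before W6 and had one at W12, and not in W6-only regions. The most frequent combinations in the W12-only set were a peak in every list but SOX9+AFOS (364 regions, 6.92%, against 3.4% of all regions) and a peak in noDOX, ΔHMG-SOX9, ΔTA-SOX9, AFOS and SOX9+ARID1a (331 regions, 6.29% against 1.92%). A peak in all 7 lists was found in 294 regions (5.59%, against 24.3%). Peak names record a fragment input for 3 of the lists, those with AFOS, with SOX9+AFOS and with SOX9+ARID1a, and not for the others. Any part of this in the shares was not tested.

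The 1771 W12-only regions with a noDOX peak were followed into the induced arms. The noDOX list is the uninduced list of the WT-SOX9 cells, and no other arm had an uninduced list of its own. In the other arms, cell line and DOX therefore cannot be told apart. Of these, 888 (50.1%, 47.8 to 52.5) had no peak in WT-SOX9, against 21% of all in vivo regions with a noDOX peak, 42.5% of W6-only and 37.2% of W6-and-W12-only regions. In SOX9+AFOS 1314 (74.2%, 72.1 to 76.2) had none, against 28% of all, 50.2% of W6-only and 61.4% of W6-and-W12-only regions. The other arms were nearer to the background: 19.1% without a peak in ΔHMG-SOX9 (background 15.3%), 14.5% in ΔTA-SOX9 (background 16.0%), 16% in AFOS (background 15.9%) and 27.6% in SOX9+ARID1a (background 18.6%). Open regions of the W12-only set were thus missing from the lists of cells with intact SOX9, with or without AFOS, more often than from those of cells with either mutant or with AFOS alone. The noDOX peaks of the set were also weaker (median score 8.38, against 13.8 over all). Split at 13.8, the 1295 weaker ones lacked a WT-SOX9 peak in 62.3% (38.5% over all regions), a SOX9+AFOS peak in 81.6% (44.4%) and a ΔHMG-SOX9 peak in 24.8% (28.8%). Among the 476 stronger ones the shares were 17% (3.53%), 54% (11.6%) and 3.57% (1.74%), so the difference from all regions in WT-SOX9 and SOX9+AFOS was present in both groups. Weaker and stronger W6-only regions had 48.3% and 17.1% in WT-SOX9, and 54.4% and 32% in SOX9+AFOS. In WT-SOX9 the set therefore exceeded W6-only regions in the weaker group only. Regions of the set with AP1 letters lacked a SOX9+AFOS peak in 79.1% and those without in 68.5%, against 48.6% and 21.7% over all regions. In WT-SOX9 the shares were 51.4% and 48.7%, against 29.2% and 18.5%, so the gap between regions with and without AP1 letters was wider over all regions than in the set. In the other arms the order was the reverse, in the set as over all regions. With and without AP1 letters, regions of the set lacked a peak in 12.1% and 20.6% for AFOS and 16.6% and 21.9% for ΔHMG-SOX9. The shares were 11.6% and 17.9% for ΔTA-SOX9 and 22.7% and 33.3% for SOX9+ARID1a.

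**Figure D4:**
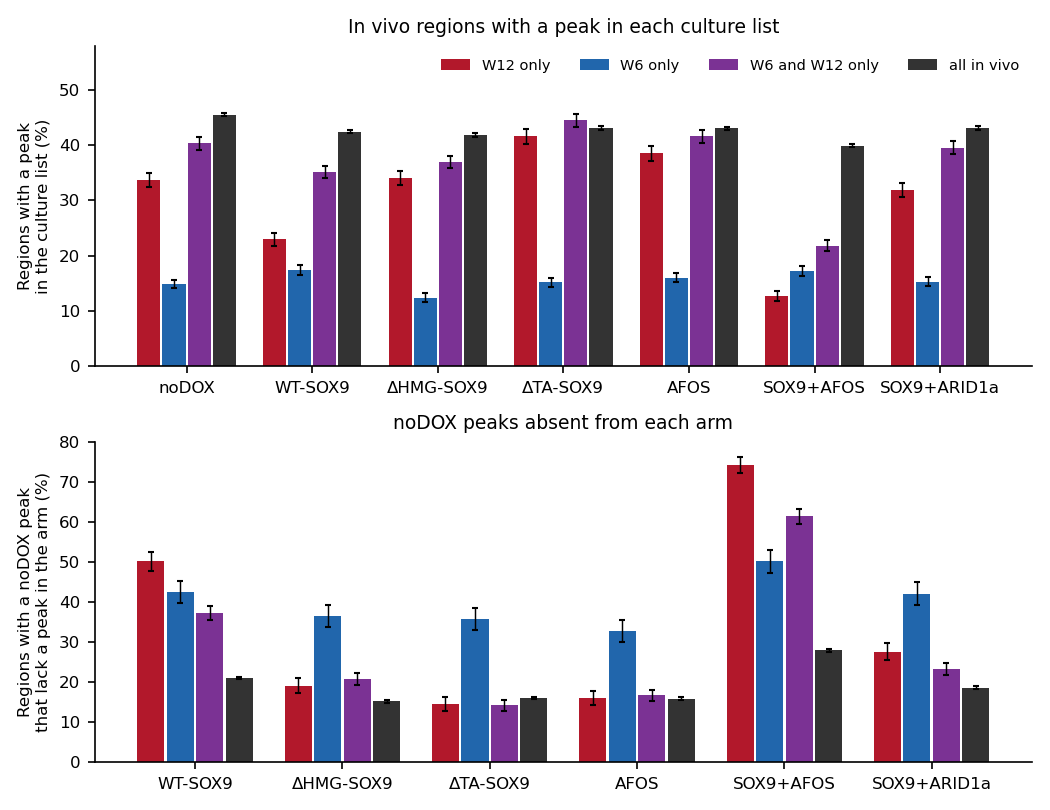
Top, share of in vivo regions with a peak in each of the 7 culture lists; bottom, share of regions with a noDOX peak that lack a peak in each induced arm (percent, bars with 95% Wilson intervals, by class of region). W12-only regions are lowest in SOX9+AFOS (12.7%) and WT-SOX9 (23%), and 74.2% and 50.1% of their noDOX peaks are missing from those lists.

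Presence of AP1 letters went with openness in culture, in the W12-only set as in all regions. AP1 letters were in 53.6% of W12-only regions with a noDOX peak (23.3% over all), in 48% of those with a peak in any culture list (22.2%) and in 33% (31.1 to 35) of those with none. Among regions with no culture peak the share was 30% at W6 and W12 only, 16.6% at W6 only and 15.3% over all. Conversely, 43.4% of W12-only regions with AP1 letters and 26.7% of those without had a noDOX peak, against 54.2% and 43.4% over all regions.

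Opening was examined in the same way, with the same limit on arms other than WT-SOX9. Of 3491 W12-only regions without a noDOX peak, 325 (9.31%, 8.39 to 10.3) had a peak in WT-SOX9. The share was 11.8% of all in vivo regions without a noDOX peak and 10.4% of W6-only regions, so that of the set lay somewhat below that of all regions. ΔTA-SOX9 had a peak in 19.3% of these regions (8.89% over all, 16.6% at W6 and W12 only), AFOS in 15.4% (8.68% and 13.5%) and ΔHMG-SOX9 in 10.3% (5.91% and 8.39%), each above the share over all regions. SOX9+AFOS lay below it, at 6.04% (13.1% and 10.4%), and SOX9+ARID1a near it, at 11.3% (11.2% and 14.4%). For WT-SOX9 the share at W6 and W12 only was 16.4%. The 325 regions differed in their letters from the rest of the set: SOX letters were in 23.1% (18.8 to 28) and AP1 letters in 23.4%, whereas the 888 regions lost with WT-SOX9 had SOX letters in 6.64% and AP1 letters in 55%. The 883 regions with a peak in both had 9.85% and 52.2%, and the 3166 with a peak in neither 9.98% and 36.7%. These shares are not given for all regions opened by WT-SOX9, so they cannot be called particular to the set.

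The 6 highest W12 scores among the 325 belonged to Ms4a6b (17.9), the Ggact region inside Pcca, a mitochondrial propionyl-CoA carboxylase subunit gene (11.6), Samd4, an RNA-binding protein gene (11.4), the Fndc5 region in a UTR of S100pbp (11.4), the zinc transporter gene Slc30a8 (9.86) and Plcg2, a phospholipase C gene (9.85). Their WT-SOX9 scores were 21, 3.04, 11.2, 42.8, 5.44 and 10.8. The Fndc5 region had the strongest WT-SOX9 peak of these and also a peak in SOX9+AFOS (9.68) and SOX9+ARID1a (28.4), but none in ΔHMG-SOX9 or ΔTA-SOX9. The Ggact region, whose window shows RUNX but no SOX letters, had peaks in both mutants (3.83 and 3.66).

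At promoters, the 167 W12-only regions within 1 kb of a TSS held AP1 letters in 27.5% (21.3 to 34.8), against 4.35% of all regions and 7.24% of W6-only regions at that distance. By W12 score they were led by Ms4a6b, followed by Ifi47, an interferon-inducible GTPase gene (12, no culture peak), and Gm10722 (8.95), whose window was 100% repeat-masked. Next came Sp140, a nuclear body gene of immune cells (8.92, no culture peak), the Cage1 region inside the kinase gene Riok1 (8.29) and the interstitial collagenase gene Mmp1b (7.77, 0.044 kb from its TSS). At Mmp1b the culture scores were 3.07 in noDOX, 4.13 in ΔHMG-SOX9, 27.6 in ΔTA-SOX9 and 15.4 in AFOS, with no peak in WT-SOX9, SOX9+AFOS or SOX9+ARID1a. The others were Suclg2 of the citric acid cycle (7.15), the RNA uridylyltransferase gene Tut4 (6.92), the transcriptional repressor gene Zbtb18 (6.92) and the complement receptor gene C5ar2 (6.68). Suclg2, like Mmp1b, had peaks in noDOX (3.47), ΔHMG-SOX9 (5.08) and ΔTA-SOX9 (10.1) and none in WT-SOX9. By contrast, Gm10722 (123 and 122), Cage1 (30.7 and 22.6) and Tut4 (4.65 and 9.64) had a peak in both noDOX and WT-SOX9.

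Genes were then grouped by role, and the share of each list's regions that were W12-only was read against the 5.37% over all regions. The RUNX list (Runx1, Runx2, Runx3 and Cbfb) had 12 W12-only regions of 118 (10.2%, 5.91 to 16.9). They belonged to the 3 Runx genes, and 10 of them had no culture peak, against 43% of the whole W12-only set. The highest score was 10.4 in an intron of Runx1, 87.8 kb from the TSS, where noDOX also had a peak and WT-SOX9 had none. Other values were 6.68 at Runx1, 5.97 at Runx2 and 5.62 at Runx3. The list of epithelial-mesenchymal transition (EMT) and invasion genes had 17 of 187 (9.09%, 5.75 to 14.1). AP1 letters were in 9 of the 17, near the 41.6% of the whole W12-only set. It included regions near the collagenase gene Mmp13 (9.05) and the stromelysin gene Mmp3 (6.68), both with a ΔTA-SOX9 peak and no noDOX or WT-SOX9 peak, and had the EMT repressor gene Zeb2 (5.74, 1100 kb from the TSS) and the matrix gene Tnc (5.29, 203 kb from the TSS) as the nearest genes of the next scores. Peaks at W6 and W12 only were found in 13 of the 118 RUNX and 26 of the 187 EMT regions, a class that makes up 6.89% of all regions. The W12-only intervals of the RUNX and EMT lists lay just above 5.37%, and no allowance was made for the number of lists, 26.

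Hedgehog genes, active in basal cell carcinoma, stood at the background, with 16 W12-only regions of 287 (5.57%, 3.46 to 8.86). Of the 16 regions, 11 held AP1 letters, against 41.6% of the whole W12-only set. The 16 included Shh, the ligand (10.5, 158 kb upstream of the TSS), Smo, the signal transducer (8.18, 3.11 kb downstream, with a peak in ΔTA-SOX9 alone among culture lists), Gas1, a co-receptor (5.71, 144 kb from the TSS), and Gpr161, a ciliary receptor that restrains the pathway (4.12). Hair follicle stem cell factors had 20 of 540 (3.7%, 2.41 to 5.65) and the SOX family 9 of 313 (2.88%, 1.52 to 5.37). The highest of both lists lay 245 kb downstream of Sox9 (8.46), with peaks in noDOX and both mutants and none in WT-SOX9 or SOX9+AFOS. Epidermal identity factors had 22 of 796 (2.76%, 1.83 to 4.15), an interval below the background. They were led by Maf (9.96, 395 kb from the TSS), a differentiation factor, Cebpa (8.67), Hes1 (6.96) and Tfap2c (6.01). The keratin list had 2 of 66, both at Krt5 and both open in noDOX and WT-SOX9.

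Signalling lists lay around the background: WNT 24 of 463 (5.18%), TGF-beta and BMP 37 of 617 (6%), NOTCH 14 of 300 (4.67%), EGF receptor 14 of 365 (3.84%), cytokines and inflammation 15 of 387 (3.88%), angiogenesis 21 of 362 (5.8%), integrins and basement membrane 12 of 366 (3.28%), cell cycle 10 of 266 (3.76%) and AP1 subunits 5 of 139 (3.6%). Within them the higher scores were at Itga2, a collagen-binding integrin (15.7, no culture peak), the NOTCH coactivator gene Maml2 (10.1, in all 7 culture lists), the stem cell receptor gene Lgr5 (9.06 and 7.36, no culture peak), the activin antagonist gene Fst (8.16) and Tgfb2 (8.07, 244 kb from the TSS).

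**Figure D5:**
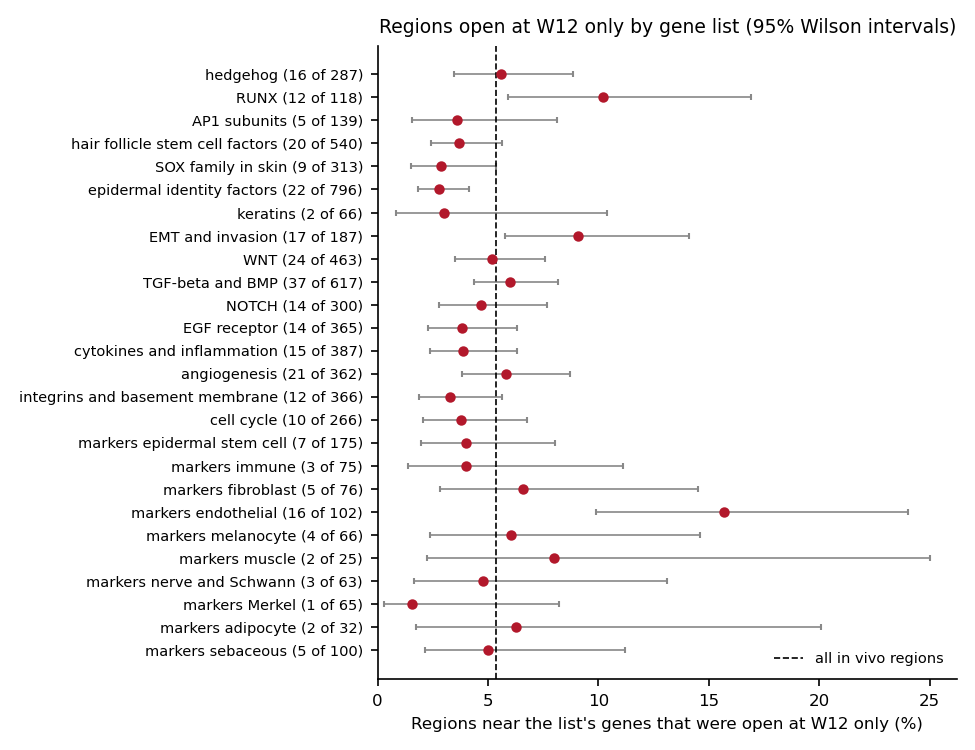
Share of in vivo regions nearest to genes of each list that are W12-only (percent, points with 95% Wilson intervals; the dashed line is the 5.37% over all regions). RUNX (10.2%) and EMT and invasion genes (9.09%) lie above the line, endothelial markers highest (15.7%), and epidermal identity factors (2.76%) and SOX family genes (2.88%) below.

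Markers of cells that the sort should have left out were examined in the same way. Endothelial markers had 16 W12-only regions of 102 (15.7%, 9.89 to 24), the highest share of the 26 lists. Of the same 102 regions, 20 had peaks at W6 and W12 only (6.89% of all regions), so endothelial marker regions were frequent in that class too. Of the 16 W12-only regions, 10 had no culture peak, against 43% of the whole W12-only set. The highest scores had as nearest genes Kdr (10.7, 146 kb from the TSS, in all 7 culture lists), Cdh5 (7.72, 112 kb), Flt1 (7.66, 40.1 kb) and Emcn (6.21, 8.29 kb). The promoter of Vwf held a W12-only region (4.2, 0.109 kb from the TSS). At the promoters, 3 of 10 endothelial markers had a W12 peak and 1 to 2 had one at earlier times. The Kdr promoter, with a peak at W2 and W6, had none at W12, and Pecam1 and Cdh5 had none at any time. Immune markers had 3 W12-only regions of 75, with promoter peaks for 2 of 18 at W12 (Cd68 and Cd52) against 0 to 1 earlier. Cd68 also had a peak at D0, W2 and W6, and the Cd52 peak scored 3, at the removal threshold. Fibroblast markers had 5 of 76, with 3 of 13 promoters at every time. The remaining lists held 4 of 66 (melanocyte), 2 of 25 (muscle), 3 of 63 (nerve and Schwann), 1 of 65 (Merkel), 2 of 32 (adipocyte) and 5 of 100 (sebaceous). Promoters of the epidermal stem cell markers were open at 9 of 10 genes at W12, Ly6a being without a peak, and at 9 or 10 in the other lists. The part of other cells in the W12-only set was not tested.

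W12-only regions were dispersed over many genes. They were nearest to 3733 protein-coding genes, of which 2726 had exactly 1, 316 had 3 or more and 53 had 5 or more. No such count is given for other classes, so the dispersal is not compared with theirs. The most were at Med13l, a Mediator kinase module gene (9 of its 75 regions), Atxn1 (8 of 46), the delta-catenin gene Ctnnd2 (7 of 22), the adhesion receptor gene Adgrl2 (7 of 108), Reep3 (7 of 55) and the septin gene Sept9 (7 of 36). Gxylt1, which acts in NOTCH glycosylation, had 6 of 20, Tgfb2 6 of 35, the ubiquitin ligase gene Lnx1 6 of 19 and the centrin-binding protein gene Sfi1 6 of 19. Among these genes the share ran from 6.48% (Adgrl2), near the 5.37% over all regions, to 31.8% (Ctnnd2). The genes were picked for their counts, so higher shares follow in part from that choice. At Tgfb2, 5 of the 6 held AP1 letters, and at Lnx1, 5 of the 6 had a noDOX peak (41.6% and 33.7% of the whole W12-only set). Chains of W12-only regions no more than 25 kb apart were short: 3980 regions stood alone, and 12 chains had 4 or more. The longest was 6 regions in 47.3 kb at Sfi1. A chain of 5 in 35.3 kb of chromosome 9, at Gm10722 and adjacent predicted genes, was 93% to 100% repeat-masked and had a noDOX peak at each region.

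Peaks over the Sox9 coding exons were examined because reads there can come from the transgene. In vivo, the peak over exon 3 (chr11:112784672-112787760) had a score of 13.5 at D0, 15.1 at W2, 9.22 at W6 and 8.84 at W12, whereas the list labelled W1 had no peak there. In culture, exon 3 had a peak in noDOX (3.71), SOX9+AFOS (5.11) and SOX9+ARID1a (3.71) and none in WT-SOX9, ΔHMG-SOX9, ΔTA-SOX9 or AFOS, so exon 3 did not follow the transgene there and gives no check of the W1 label. With the W1 list left out of the choice the set grew to 5828 regions and AP1 letters were in 39.3% of them. A W12-only region lay over Sox9 exon 2 (chr11:112783816-112784095, 247 of its 280 bp in the exon) with a W12 score of 5.26. Its culture scores were 21.2 in WT-SOX9, 71.9 in ΔHMG-SOX9, 101 in ΔTA-SOX9, 4.61 in SOX9+AFOS and 4.14 in SOX9+ARID1a, with no peak in noDOX or AFOS. The region was therefore called in each culture list of cells that received a SOX9 transgene and DOX and in no other. Transgene and endogenous reads cannot be told apart there.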

How the data were processed

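Paired-end ATAC-seq of 24 samples was analysed as 12 deposited peak lists. The authors aligned reads to GRCm38/mm10 with PEPATAC, and their submitters' processing notes name Bowtie2 2.2.9, SAMtools 1.9, Picard 2.3.0, MACS2 2.1.1 and deepTools 2.5.4. The authors merged the reads of 2 replicates before peak calling and kept peaks with a normalized score of at least 3. The deposited columns used are the score, the fold enrichment over local background (a ratio) and, in vivo, the −log10 of the q value. The lowest −log10 q was 14.5 (D0), 9.37 (W1), 4.21 (W2), 5.74 (W6) and 10.1 (W12), so the lists differ in stringency. The number of reads is unknown, and no interval for depth could be given. The lists hold 49458 to 75956 peaks.

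Peaks were merged and letters searched with Python 3.11.15, numpy 2.4.6 and pandas 2.3.3, and figures drawn with matplotlib 3.10.9. Scripts were checked on simulated data. Genes are those of the nearest protein-coding TSS (GENCODE basic annotation of GRCm38). Shares carry 95% Wilson intervals that cover counting error only. The regions and gene lists were chosen with earlier results of these data known. Named regions follow a rule (the 12 highest scores, the 10 highest within 1 kb of a TSS, the 6 highest opened by WT-SOX9, up to 4 genes a list, the 10 genes with most regions, the 5 longest chains, and the Sox9 exons and marker promoters as checks). Some alternatives, and the shares of noDOX peaks missing in each induced arm, were added after seeing the data; the closing section names them. Reads within peaks and single replicates were not analysed here.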

Additional observations from a re-analysis of the deposited data

How the results depend on the processing

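No paired analysis was possible because each list pools both replicates of its group, and leaving out a replicate was not possible either. Peaks under a score of 3 are not in the lists, read depth is unknown, and 76.1% of the set scored under 5.

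With a score of at least 5 required in all 5 lists, 3426 regions were W12-only, 6.71% of those with a W12 peak. Of these, 46.1% had a noDOX and 32.8% a WT-SOX9 peak, 44.3% held AP1 and 9.3% SOX letters, and of the noDOX peaks 43.3% were missing in WT-SOX9 and 68.3% in SOX9+AFOS. With a common minimum −log10 q of 14.5 there were 6663 regions (11.6% of W12 regions), with 41.8% in noDOX, 33.5% in WT-SOX9, SOX letters in 11.4% (9.22% of all regions, so the set then lay above all), GATA letters in 7.97%, and 40.7% and 63.3% of noDOX peaks missing. With each list cut to its 57334 highest scores, 3570 regions remained (6.36%), with 42.2% in noDOX, 29.8% in WT-SOX9, AP1 letters in 44.9%, and 45.8% and 72% missing. Leaving W1 out gave 8.28% of W12 regions, 3.77% within 1 kb of a TSS, AP1 letters in 39.3% and 70.1% missing in SOX9+AFOS. Members with a W12 score of at least 5 numbered 1260 (2.47% of W12 regions), with 2.47% within 1 kb of a TSS, 45.2% in noDOX, 29.5% in WT-SOX9, AP1 letters in 47.5%, RUNX letters in 23% and 79% missing in SOX9+AFOS. Within 5 kb of a TSS lay 13.9%. Scanning the full region gave AP1 48%, RUNX 31%, SOX 16.6% and GATA 15.7%, and all in vivo regions then had 30.5%, 35.4%, 24.2% and 26.2%, so that RUNX and SOX letters were less frequent in the set than in all regions. The shares of noDOX peaks missing in WT-SOX9 and in SOX9+AFOS were themselves added after seeing the data, with all their alternatives. Among the other alternatives chosen after seeing the data, scanning 200 bp around the summit changed no motif share beyond counting error, culture peaks scoring at least 5 gave 24.8% in noDOX, 15.3% in WT-SOX9, and 56.9% and 80.2% missing, and regions with no culture peak held AP1 letters in 33% (15.3% of all and 16.6% of W6-only regions without one). Merging peaks within 250 bp changed none of the 11 values beyond counting error. The AP1 share of the set was above that of W6-only and of all regions in each of these settings that changed the regions or the scan.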

Other observations

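The W12-only share of regions differed among chromosomes, from 3.44% on X (2.73 to 4.34) to 6.08% on chromosome 6. The cause was not tested.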
